A study of Homo sapiens with 6 samples.

Results

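KYSE-30 and KYSE-150 are established lines of esophageal squamous cell carcinoma (ESCC), and the open chromatin of the first was set against that of the second in 4 ATAC-seq libraries out of the 6 of the study. KYSE-30 has libraries 4 and 6 and KYSE-150 has libraries 7 and 8, named by the numbers in their labels, and the 2 libraries of the non-cancerous line HET-1A are not used here. The peak lists of these 4 libraries hold 13732 of the 29879 peaks of the series. Peaks that share at least 1 bp were merged into 12700 regions, of 23972 regions when all 6 libraries are merged. Both lines were untreated and were grown in the same RPMI/F12 medium with serum and antibiotics, and the 2 libraries of a line are described as biological replicates. Each line descends from 1 tumor, with KYSE-150 described as poorly differentiated and KYSE-30 as strongly metastatic, so that 2 cultures and not 2 kinds of tumor are compared. The lists are the calls of each library by itself, and with 2 libraries against 2 an exact permutation test between the lines cannot give a two-sided p under 0.333. No test between the lines was run, and the values of all 4 libraries are given side by side.

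ATAC-seq uses the Tn5 transposase to cut accessible DNA, so that open sites give many short fragments. Promoters of genes that every cell needs are open in nearly all cell types, whereas enhancers far from start sites differ between them and hold the binding sites of the factors that shape a cell. AP-1, a dimer of Fos, Jun and related proteins, binds the core TGACTCA at many enhancers of squamous cells and is switched on through the MAPK cascade below the epidermal growth factor receptor EGFR.

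The sequences that carry the comparison are given first, as 200 bases of hg19 on the forward strand around the highest point of a peak, with the AP-1 core in capitals on either strand (TGACTCA or TGAGTCA). Among regions found in each KYSE-30 library and absent from KYSE-150, the leading one lies in the first intron of EGFR (chr7:55200581-55200780), the leading one outside EGFR that holds the core is distal intergenic (chr11:70079637-70079836), and the leading one away from raised background, defined further on, is the promoter of ZNF286A-TBC1D26 (chr17:15602819-15603018), with no core.
KYSE-30, first intron of EGFR: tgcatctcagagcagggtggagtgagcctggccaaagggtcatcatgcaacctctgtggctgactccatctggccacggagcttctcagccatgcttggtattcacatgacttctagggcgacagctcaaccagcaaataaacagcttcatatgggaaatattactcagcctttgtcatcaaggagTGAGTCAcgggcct
KYSE-30, distal intergenic on chromosome 11: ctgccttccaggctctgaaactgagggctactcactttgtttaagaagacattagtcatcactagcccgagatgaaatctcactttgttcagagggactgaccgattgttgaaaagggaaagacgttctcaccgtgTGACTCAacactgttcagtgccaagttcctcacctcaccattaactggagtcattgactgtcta
KYSE-30, promoter of ZNF286A-TBC1D26: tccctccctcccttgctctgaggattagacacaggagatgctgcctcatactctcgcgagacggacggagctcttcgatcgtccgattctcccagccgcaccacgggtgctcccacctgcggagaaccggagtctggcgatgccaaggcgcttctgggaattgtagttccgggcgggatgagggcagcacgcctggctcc
The region that leads KYSE-150 in the same way is distal intergenic on chromosome 20 (chr20:46523776-46523975) and does not hold the core.
KYSE-150, chromosome 20: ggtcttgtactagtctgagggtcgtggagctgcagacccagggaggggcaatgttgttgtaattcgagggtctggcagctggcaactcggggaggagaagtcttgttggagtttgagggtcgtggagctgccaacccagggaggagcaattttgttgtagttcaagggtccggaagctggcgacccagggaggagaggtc
A peak of KYSE-150 with the core and outside promoters had to be sought in single libraries. The leading one of library 7 lies in an intron of SEMA3E (chr7:83097748-83097947, where KYSE-30 library 6 has a peak as well), the next in the first intron of CHN2 (chr7:29325109-29325308), and the leading one of library 8 in an intron near PRKAR2B-AS1 (chr7:106751339-106751538). The SEMA3E window is centred on the highest point of the peak of KYSE-30 library 6, not on that of library 7. How far the core lies from the highest point in library 7 is not shown. The CHN2 and PRKAR2B-AS1 windows are centred on KYSE-150 peaks.
KYSE-150 library 7, intron of SEMA3E: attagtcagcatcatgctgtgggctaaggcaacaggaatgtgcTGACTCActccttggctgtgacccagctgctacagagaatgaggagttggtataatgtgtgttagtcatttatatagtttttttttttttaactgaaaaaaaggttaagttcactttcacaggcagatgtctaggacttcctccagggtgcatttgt
KYSE-150 library 7, first intron of CHN2: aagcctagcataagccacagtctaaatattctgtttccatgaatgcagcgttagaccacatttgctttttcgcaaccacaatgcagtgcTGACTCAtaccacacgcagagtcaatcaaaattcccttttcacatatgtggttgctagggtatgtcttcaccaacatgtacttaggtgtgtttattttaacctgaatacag
KYSE-150 library 8, intron on chromosome 7: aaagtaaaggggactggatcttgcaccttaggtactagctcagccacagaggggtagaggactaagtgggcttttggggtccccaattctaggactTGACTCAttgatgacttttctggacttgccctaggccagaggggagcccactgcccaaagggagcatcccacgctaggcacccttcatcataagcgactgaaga
For contrast, a region that stood near the top of all 4 lists lies in an intron on chromosome 14 (chr14:88237547-88237746) and holds no core.
All 4 libraries, intron on chromosome 14: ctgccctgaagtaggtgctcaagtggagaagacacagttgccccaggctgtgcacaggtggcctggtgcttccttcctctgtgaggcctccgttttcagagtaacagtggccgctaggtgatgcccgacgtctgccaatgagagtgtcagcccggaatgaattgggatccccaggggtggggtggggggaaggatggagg

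The lists differed far more in length than in the height of their peaks. KYSE-30 libraries 4 and 6 had 1255 and 11671 peaks, and KYSE-150 libraries 7 and 8 had 547 and 259. The median fold enrichment, which is the number of tags at the highest point over the local background with 1 added to each, was 4.29 and 5.47 in libraries 4 and 6 and 4.07 and 4.20 in libraries 7 and 8. Read totals are unknown, but the lowest local background of a library, recovered from its fold enrichments and p-values, was 2.36, 1.49, 2.80 and 2.64 tags per 200 bp in libraries 4, 6, 7 and 8, and the weakest peaks held 11, 8, 13 and 13 tags. KYSE-30 library 6 thus stood apart with the longest list and the lowest background. To take the length of the list out of the comparison, the 259 peaks of smallest p-value were also taken from each library, which is called equal rank below. The last of these peaks had a −log10 p of 10.46, 28.97, 8.50 and 5.64 in libraries 4, 6, 7 and 8, so equal rank compares steep peaks of library 6 with shallow ones of library 8.

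The labelled cell type was checked against promoters of defining genes, counting a gene when a peak lay within 3 kb of one of its start sites. Any annotated start counts, so a promoter peak can lie at an internal or late start, and for 12 of the 48 genes whose values were tabulated the leading peak lay over 3 kb from the 5′ end of the gene. None of the 8 squamous epithelial markers, (KRT5, KRT14, KRT6A, KRT17, TP63, CDH1, DSG3 and PKP1) had a promoter peak in any of the 4 libraries. The same was true of 8 blood cell markers and 5 endothelial markers, and of the 7 fibroblast markers COL3A1 alone had one, in KYSE-30 library 6. For comparison, a promoter peak was found at 781 of 20136 protein-coding genes in library 4 (3.88%), 5777 in library 6 (28.7%), 361 in library 7 (1.79%) and 73 in library 8 (0.363%). At these list lengths 8 genes cannot check the label in libraries 4, 7 and 8, while library 6 had none of 8 beside a background of 28.7%. TP63, the master regulator of squamous cells, had 2 peaks inside the gene in library 6 but none at its starts.

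Over all peaks the KYSE-30 libraries overlapped more than any pair across the lines, while the KYSE-150 libraries overlapped less than libraries 6 and 7. KYSE-30 library 6 held 56.0% of the peaks of library 4 (Wilson 95% interval 53.3 to 58.7%), and KYSE-150 library 7 held 23.6% of the peaks of library 8 (18.8 to 29.1%). Across the lines, library 6 held 38.9% of the peaks of library 7 (34.9 to 43.1%) and 18.9% of those of library 8 (14.6 to 24.1%), and library 4 held 14.1% and 16.2%. KYSE-150 library 8 was thus found again in its own replicate more often than in either KYSE-30 library. Library 7 was found again in KYSE-30 library 6 more often than library 8 was in its own replicate. The lists sought in there differ in length, with 11671 peaks in library 6 and 547 in library 7, and these shares are not corrected for it. All intervals given here cover counting error only, and peaks are not replicates.

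At equal rank both replicate pairs shared more than any pair across the lines, although the margin was small. The KYSE-30 libraries shared 20.1% (15.7 to 25.4%) and the KYSE-150 libraries 19.7% (15.3 to 25.0%). Library 4 shared 14.3% (10.55 to 19.1%) with library 7 and 12.4% (8.89 to 16.9%) with library 8, and library 6 shared 7.72% and 3.47% with these. The intervals of both replicate pairs overlapped those of library 4 with the KYSE-150 libraries. The order depended on the ranking, since 259 peaks ranked by fold enrichment gave 10.8% for the KYSE-30 libraries against 12.4% for library 4 with library 7. With 100 peaks per library, library 4 shared 21% with its replicate and 29% with each KYSE-150 library, while the KYSE-150 libraries shared 40%.

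**Figure D1:**
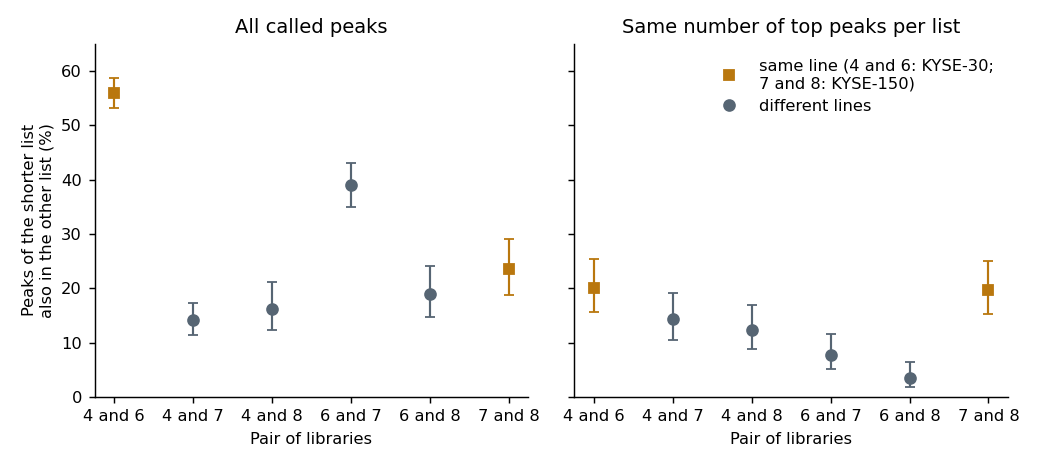
Share of the peaks of the shorter list that overlap a peak of the other list (y axis, percent) for the 6 pairs of libraries (x axis), over all peaks (left) and the 259 top peaks per library (right), with Wilson 95% intervals. Squares are replicates of a line and circles pairs across the lines; the pair 4 and 6 stands highest over all peaks, at 56.0%, and at equal rank both squares lie near 20%, above the circles.

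Where in a list the shared peaks lay differed between the libraries. When each list was cut by p-value into 10 equal parts, of the first part of KYSE-150 library 8 96.2% were found in library 7, but 92.3% were also found in KYSE-30 library 4 and 73.1% in library 6. In its last part none of 25 peaks was found in library 7. The strongest peaks of library 8 were therefore mostly peaks of both lines. In the long list of library 6, peaks of libraries 4 and 7 were found to the end. The share went from 81% in the first part to 41.6% in the last for library 4, and from 61.8% to 33.3% for KYSE-150 library 7. For KYSE-150 library 8 it fell from 73.1% to 8%. Conversely, peaks of library 6 were found in library 4 for 21.7% of the first part and 0.943% of the last. In KYSE-150 library 7 they were found for 6.51% and 0.171%. The lists sought in there hold 1255 and 547 peaks, and these shares are not corrected for it. In KYSE-150 libraries 7 and 8 the first part of library 4 was found for 27% and 24.6%. Of the 547 peaks of library 7, 197 (36%) were shared with KYSE-30 and not with library 8, and 88.3% of these lay in promoters.

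**Figure D2:**
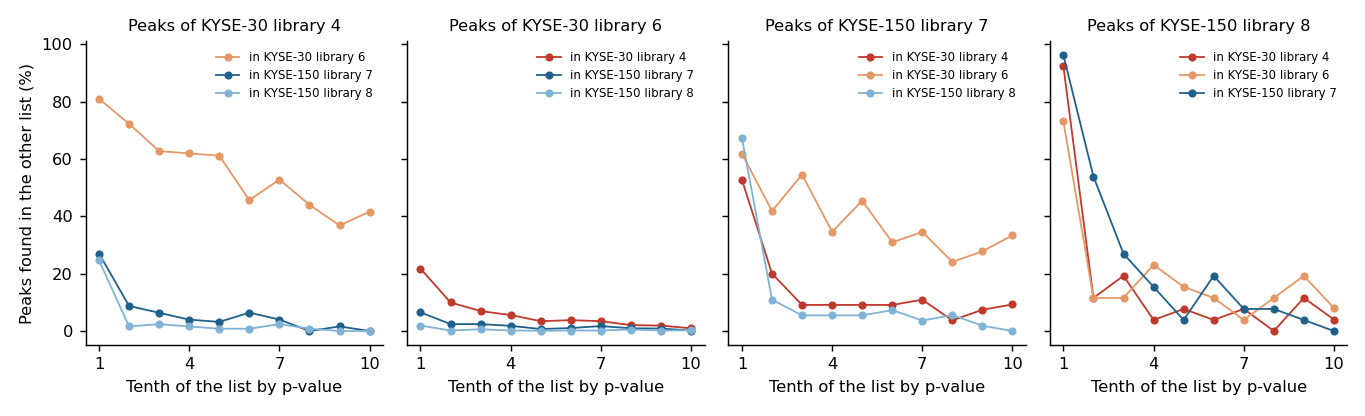
Share of peaks found in each other list (y axis, percent) by position in a list ordered by p-value and cut into 10 equal parts (x axis, the first part holding the smallest p), with 1 panel per library. Peaks of KYSE-30 library 4 and of KYSE-150 library 7 are found in library 6 along their whole lists, from 81% to 41.6% and from 61.8% to 33.3%, whereas those of KYSE-150 library 8 are shared with all 3 other libraries in the first part and with few in the last parts.

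Of the 12700 merged regions, 631 had a peak in each KYSE-30 library and none from KYSE-150, and are called KYSE-30 regions. The reverse held for 26 regions, called KYSE-150 regions, and 21 regions had a peak in all 4 libraries. Library 6 by itself accounted for 10799 regions, library 4 for 526, library 7 for 288 and library 8 for 169. At equal rank the counts were nearer to each other, with 40 KYSE-30 regions, 25 KYSE-150 regions and 9 regions in all 4 libraries among 881 regions. The large excess of KYSE-30 regions over all peaks thus shrank to 40 against 25 when each library gave the same number of peaks.

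The kinds of site in these sets also differed. Promoters, taken as 3 kb to each side of a start site, held 75.8% of the 631 KYSE-30 regions (72.3 to 78.9%) and 11 of the 26 KYSE-150 regions (42.3%, 25.5 to 61.1%). Distal intergenic sites made up 10.3% of the KYSE-30 regions and 42.3% of the KYSE-150 regions. Regions with a peak in at least 1 library of each line, 261 in number, were promoters in 80.8% (75.6 to 85.2%). At equal rank the promoter shares were 65% (49.5 to 77.9%) and 44% (26.7 to 62.9%), and their intervals overlapped.

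Many of the KYSE-150 regions lay in sequence that is hard to map. A site was called multi-copy when the 36-base words in 200 bp around its summit occurred 2 or more times in hg19 at the median, and near a gap when an unsequenced stretch of at least 50 kb lay within 1 Mb. Both classes were set after seeing the data. Multi-copy sequence was found in 11 of the 26 KYSE-150 regions (42.3%) against 1.58% of the KYSE-30 regions, and a gap was near 15 of them (57.7%) against 9.19%. In all, 19 of the 26 were multi-copy or near a gap, as were 14 of 25 at equal rank, against 3 of 40 KYSE-30 regions, of which 0 were multi-copy (up to 7.5% is allowed by a count of 0). With multi-copy peaks left out 15 KYSE-150 regions remained, and with peaks near gaps left out 11. The part of mapping in the KYSE-150 regions was not tested.

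**Figure D3:**
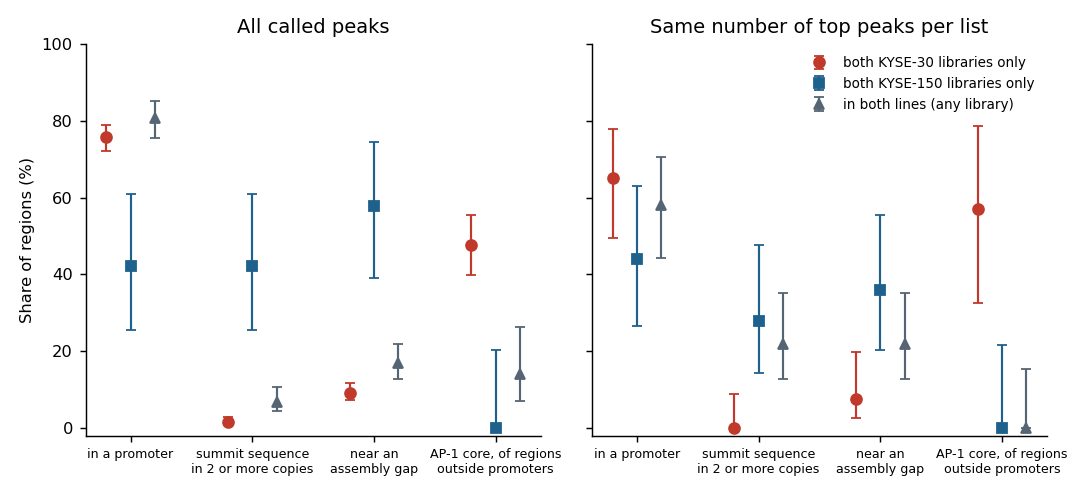
Share of regions (y axis, percent) that lie in promoters, are multi-copy, lie near an assembly gap or, of the regions outside promoters, hold the AP-1 core, over all peaks (left) and the 259 top peaks per library (right), with Wilson 95% intervals. KYSE-150 regions (squares) stand high in the multi-copy and gap classes, at 42.3% and 57.7% over all peaks, and KYSE-30 regions (circles) in the AP-1 class, at 47.7%.

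Within single libraries the classes of site set library 8 apart and not the line. At equal rank promoters took 68.0% of the peaks of library 4, 71.0% of library 6, 68.0% of library 7 and 47.5% of library 8 (41.5 to 53.6%). Distal intergenic sites took 13.5%, 12%, 15.1% and 22.8%, introns 13.1%, 15.1%, 12.7% and 19.7%, and exons 2.32%, 0.772%, 1.16% and 5.79% in the same order. KYSE-150 library 7 was as rich in promoters as both KYSE-30 libraries. The share of multi-copy peaks at equal rank was 9.65%, 0.772%, 10.8% and 22%, and of peaks near gaps 15.4%, 8.11%, 23.6% and 33.2%. Library 6 lay lowest and library 8 highest in both, so these shares moved with the same libraries as the promoter share. Mean GC content around the summit was close in all libraries, at 59.1%, 57.1%, 58.5% and 55.7%.

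The AP-1 core separated the libraries more than any class of site. Outside promoters, at equal rank, it lay within 100 bp of the summit in 19 of 83 peaks of KYSE-30 library 4 (22.9%, 15.2 to 33.0%) and in 46 of 75 peaks of library 6 (61.3%, 50.02 to 71.5%). In KYSE-150 it lay in 8 of 83 peaks of library 7 (9.64%, 4.97 to 17.9%) and in 3 of 136 peaks of library 8 (2.21%, 0.753 to 6.28%). In windows of the same length 10 kb downstream of these peaks the shares were 1.2%, 0% (0 of 75, which allows up to 4%), 3.61% and 2.21%, so that library 8 stood at the level of its surroundings. Both KYSE-30 libraries were above both KYSE-150 libraries, but library 6 also exceeded library 4 by more than library 4 exceeded library 7, and the intervals of libraries 4 and 7 overlapped. In promoter peaks at equal rank the core was found in 7.39%, 10.3%, 2.27% and 5.69%, in the same order. Both KYSE-30 libraries were again above both KYSE-150 libraries, with lower shares in KYSE-30 than outside promoters. The margin was small, at 7.39% of 176 peaks in library 4 against 5.69% of 123 in library 8. The order in promoters is therefore not a clear difference between the lines.

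Over all peaks outside promoters the core was found in 18.4% of 456 peaks of library 4, 42.7% of 5243 of library 6, 6.19% of 194 of library 7 and 2.21% of 136 of library 8. The order of the libraries was the same with multi-copy peaks left out and 202 peaks per library, at 26.1%, 60.7%, 11.5% and 1.87%, and among equal-rank peaks with a local background under 4 times the lowest of the library, at 24.6%, 58.3%, 9.72% and 2.42%. The share fell along the lists of KYSE-30. From the first to the last of 4 equal parts of the single-copy peaks it went from 26.9% to 12.6% in library 4 and from 57.4% to 23.8% in library 6. In library 7 the first part held it in 16.7% (8.32 to 30.6%) and the last in 2.44%, and the interval of its first part covered the share in the weakest part of library 6.

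**Figure D4:**
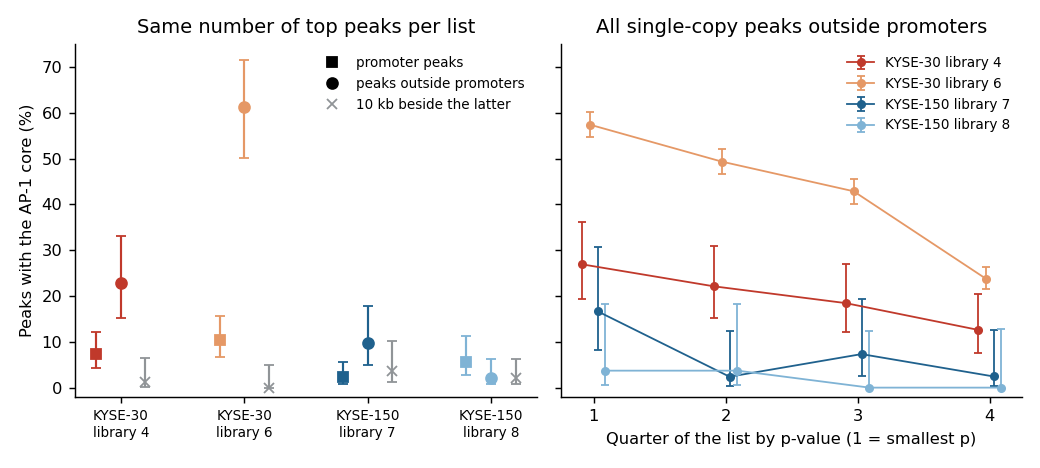
Share of peaks with the AP-1 core within 100 bp of the summit (y axis, percent), at equal rank by library (left, squares for promoter peaks, circles for peaks outside promoters, crosses for windows 10 kb beside the latter) and for single-copy peaks outside promoters in 4 equal parts of each list by p-value (right), with Wilson 95% intervals. Peaks outside promoters stand at 22.9% and 61.3% in KYSE-30 and at 9.64% and 2.21% in KYSE-150.

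Among regions called in both libraries of 1 line and in neither of the other, the core was found in those of KYSE-30 alone. It was present in 73 of the 153 KYSE-30 regions outside promoters (47.7%, 39.95 to 55.6%) and in 0 of 15 KYSE-150 regions, which allows a share of up to 20%. At equal rank these were 8 of 14 and 0 of 14, which allows up to 21.4%. For each region the peak that stood highest in its list was searched, and the share depended on this choice. Over all peaks outside promoters shared with the replicate only, the core lay in 58 of 156 of library 4 (37.2%) and in 77 of 153 of library 6 (50.3%). Regions with a peak in either KYSE-30 library and in no KYSE-150 library held it in 41.1% of 5479 cases outside promoters, and regions with a peak in either KYSE-150 library and in no KYSE-30 library in 10 of 244 (4.10%, 2.24 to 7.38%). The first value rests on library 6, which by itself gave 5052 of these 5479 regions with the core in 42.6%. Regions of library 4 by itself held it in 26 of 274 (9.49%, 6.56 to 13.5%), and those of library 7 by itself in 7 of 136 (5.15%, 2.52 to 10.2%), with overlapping intervals. Regions found in at least 1 library of each line held it in 7 of 50 (14%). All 7 were among the 17 regions outside promoters found in libraries 6 and 7 only (41.2%, 21.6 to 63.99%). That share was close to the 42.6% of library 6 by itself, with a wide interval. Searched at the peaks of library 7 shared with KYSE-30 only, the core lay in 5 of 23 outside promoters (21.7%, 9.66 to 41.9%). Of the 12 regions outside promoters in all 4 libraries none held it, which allows up to 25%.

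The core was spread over both kinds of site outside promoters. At equal rank it lay in 17.1%, 58.1%, 10.3% and 1.69% of the distal intergenic peaks of libraries 4, 6, 7 and 8, and in 35.3%, 66.7%, 12.1% and 3.92% of the intron peaks. Introns had the higher share in each library, but the shares rest on few peaks. Distal intergenic peaks numbered 35, 31, 39 and 59 and intron peaks 34, 39, 33 and 51 in libraries 4, 6, 7 and 8. In libraries 7 and 8 few of them held the core. The 2 kinds of site cannot be ranked on these counts in any of the libraries. The third KYSE-30 region with the core, after those in EGFR and on chromosome 11 printed above, lies in the first intron of ADORA2B, an adenosine receptor (chr17:15862526-15862879), with fold enrichments of 4.47 and 6.52 in libraries 4 and 6. In KYSE-150 the peak at the SEMA3E site had 6.25 from 28 tags in library 7. The peak of KYSE-30 library 6 there, on which the window printed above is centred, had 11.2 from 31 tags. The CHN2 peak had 4.12 from 36 tags and was found in library 7 alone, and the leading peak of library 8 had 5.56 from 20 tags and was found in no other library. None of the peaks with the core printed for KYSE-150 was found in both of its libraries.

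Other short motifs were searched in the same windows on both strands, and differed less between the lines. None of them contains another, although their ends can overlap. NF-Y, a factor of promoters of cell cycle and histone genes that binds CCAATCA, had its motif in 10.2%, 23.9%, 13.6% and 3.25% of the promoter peaks of libraries 4, 6, 7 and 8 at equal rank, against 1.70%, 2.72%, 3.41% and 1.63% in the windows downstream. Library 7 thus lay between both KYSE-30 libraries, and library 8 was lowest. The motif ACATTCCA of TEAD, the DNA-binding partner of YAP, was found outside promoters in 6.02%, 5.33%, 1.2% and 1.47%, on counts of 5, 4, 1 and 2 peaks. In promoter peaks the ETS motif CCGGAAGT was found in 5.11%, 6.52%, 2.84% and 1.63%, and NRF1 (GCGCATGCG) in 3.41%, 2.72%, 1.70% and 0% (0 of 123, which allows up to 2.44%). These 3 were higher in both KYSE-30 libraries than in both KYSE-150 libraries, but every interval of a KYSE-30 library overlapped those of KYSE-150. CTCF (AGNNGGCGC), which marks domain boundaries, was found in 6.25%, 9.24%, 6.82% and 7.32% of promoter peaks. Around the start sites of 20163 protein-coding gene models, 1 per model, the share was 2.62% for the AP-1 core, 5.79% for NF-Y, 9.47% for CTCF, 4.45% for ETS, 1.90% for NRF1 and 0.466% for TEAD.

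Genes were compared by their promoter peaks, beginning with EGFR and its ligands. The backgrounds of 3.88%, 28.7%, 1.79% and 0.363% given above for libraries 4, 6, 7 and 8 stand beside all counts that follow, and for the short lists of libraries 4, 7 and 8 a count of 0 in a group of this size is near the background. Of 15 genes of this group, 7 (46.7%) had a promoter peak in KYSE-30 library 6 (EGFR, EGF, TGFA, EREG, BTC, EPGN and the adaptor SHC1) and 0 in library 4 and in both KYSE-150 libraries. The peak counted for EGFR in library 6 lay at an internal start 90.3 kb from the 5′ end of the gene, with a fold enrichment of 5.96 from 106 tags and rank 33 in the list, and no peak lay at the first start. Inside the gene there were 7 peaks in library 4, 8 in library 6 and 0 in libraries 7 and 8. The ligand promoters TGFA and EREG were weak, with fold enrichments of 4.52 and 4.57 and ranks of 7908 and 6554, and were named with the other members after their values were seen. The receptors ERBB2 and ERBB3 and the ligand HBEGF had no promoter peak in any library.

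The neighbours of EGFR on chromosome 7 were the genes most clearly found in 1 line. Of 10 neighbours fixed as a list with earlier results of these data known, 6 had a promoter peak in library 4 and 7 in library 6, with 0 in libraries 7 and 8. All 6 of library 4 were also among the 7 of library 6 (SEC61G, LANCL2, PSPH, CCT6A, SUMF2 and CHCHD2, with VOPP1 added in library 6). CHCHD2, a mitochondrial protein, had a fold enrichment of 3.59 with rank 59 in library 4 and of 11.2 with rank 3 in library 6. LANCL2 reached 2.71 with rank 53 and 6.60 with rank 12. PSPH, the last enzyme of serine synthesis, and CCT6A, a subunit of the TRiC chaperonin, share a start region and 1 peak, with 2.70 and rank 790 in library 4 against 10.4 and rank 5 in library 6. These promoters ranked higher in library 6 than in library 4 in each case. Against all genes, a promoter peak in each KYSE-30 library with none from KYSE-150 was found at 570 of 20136 (2.83%), and at 6 of these 10.

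On the long arm of chromosome 11, CCND1, which encodes cyclin D1 and is often amplified in ESCC, had no promoter peak in any library. Of 12 genes around it, CTTN (cortactin, an actin-binding protein) and PPFIA1 had 1 in both KYSE-30 libraries and FADD in library 6, with none in KYSE-150. CTTN had fold enrichments of 2.60 and 4.66 and PPFIA1 of 2.46 and 4.61 in libraries 4 and 6. They ranked 764 and 848 of the 1255 peaks of library 4, and 768 and 698 of the 11671 peaks of library 6.

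Among the cell cycle genes, 3 of 24 had a promoter peak in library 4 (CCNB1, CDK2 and CDKN1C), 12 in library 6 (50% beside a background of 28.7%) and 0 in libraries 7 and 8, which is near their backgrounds for 24 genes. CCNB1, the mitotic cyclin B1, had fold enrichments of 5.40 and 5.60 in libraries 4 and 6. The peak counted for CDK2, the kinase of entry into S phase, had 4.65 and 7.82 but lay past the end of the gene, 7.01 and 6.74 kb from its 5′ end. MYC had a promoter peak in library 6 alone, with a fold enrichment of 3.48 and rank 10945 of 11671. Of 17 MAPK feedback genes, which dampen signalling below EGFR, library 6 had 9 (52.9%) and library 4 had PHLDA1 alone (3.72 in library 4 and 6.02 in library 6), with 0 in KYSE-150, again near its backgrounds. At equal rank the backgrounds were 0.884% and 1.08% in libraries 4 and 6. Of the cell cycle genes CCNB1 was left in library 4 and E2F3 in library 6 (4.17% each), and of the MAPK feedback genes ETV5 in library 6 (5.88%). At such backgrounds groups of 24 and 17 genes hold few calls, so the drop in these counts says nothing about the genes.

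Genes of AP-1 proteins and of epithelial identity were found in KYSE-150 as well. Of 26 AP-1 family genes, promoter peaks were found at 3 in library 4 (ATF2, ATF3 and ATF4), 8 in library 6, 2 in library 7 (ATF3 and ATF7) and 0 in library 8. The 8 of library 6 (30.8%) were close to its background of 28.7%. ATF3, an early stress response gene, was present in 3 libraries at a start 43 kb inside the gene, with fold enrichments of 4.11, 6.63 and 2.76 in libraries 4, 6 and 7, and library 6 had a further peak of 6.73 near the 5′ end. ATF7 had 7.01 in library 6 and 5.40 in library 7, and ATF2 4.17 and 10.4 in libraries 4 and 6. JUN and FOSL2 had promoter peaks in library 6 alone, so the genes of the classical dimer were not seen in both libraries of either line. Of 18 squamous and epithelial factors, 7 were found in library 6 and KLF5 and RUNX1 in library 7. KLF5, a factor of proliferating epithelial cells, had 6.89 in library 6 and 4.36 in library 7, 3.66 and 3.63 kb from its 5′ end. RUNX1 had 4.39 in library 7, 1116 kb from the outermost annotated start, and no promoter peak elsewhere. SOX2 had none in any library.

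Junction genes gave 2 calls in KYSE-150. JUP, which encodes plakoglobin of desmosomes and adherens junctions, had 4.21 with rank 111 in library 7 and 4.45 with rank 10116 in library 6. PKP3, the desmosomal plakophilin 3, had 3.14 with rank 159 in library 8, 11.3 kb from its 5′ end, a further peak of 2.94 near that end, and no promoter peak in the other libraries. Library 6 had 6 of these 28 genes (CLDN1, CLDN4, EPCAM, JUP, KRT8 and PKP2) and library 4 had 0. Mesenchymal genes were found in KYSE-30 only at SNAI2 in library 4 and at TGFBI, TGFBR2 and VIM in library 6, of 20. The background of a promoter peak in either KYSE-150 library was 423 of 20136 genes (2.1%), and 2 of 18, 2 of 28 and 0 of 20 were found in the squamous, junction and mesenchymal groups.

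Ribosomal protein and histone genes stood above the background in library 6, and histone genes in library 7. Of 77 cytosolic ribosomal protein genes, 3 had a promoter peak in library 4 (3.90%, RPL30 and RPL7A among them), 41 in library 6 (53.2%), RPL9 in library 7 (1.30%) and none in library 8, so that libraries 4 and 7 were at their backgrounds. Of 47 replication-dependent histone genes of the cluster on chromosome 6, library 6 had 37 (78.7%) and library 7 had 7 (14.9%), while libraries 4 and 8 had 0. Since 1 peak can count for more than 1 neighbouring gene of the cluster, these genes are not independent calls. At equal rank library 7 had 5 histone genes and the 3 other libraries 0, against a background in library 7 of 0.919% of all genes. These 5 genes (H2AC11, H2BC11, H2AC12, H2BC12 and H4C5) rest on few peaks, since H2AC11 and H2BC11 share 1 peak (3.84 in library 7 and 8.17 in library 6), as do H2AC12 and H2BC12 (3.99 and 4.67). The KYSE-150 replicate did not carry them. Of 20 genes of the NRF2 pathway of oxidative stress, 9 were found in library 6 and OSGIN1 in library 7 (3.98, with 5.87 in library 6, at starts over 20 kb inside the gene), and of 17 genes of the YAP and TEAD pathway 6 in library 6 alone.

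At equal rank the background of a promoter peak was 178 genes in library 4 (0.884%), 218 in library 6 (1.08%), 185 in library 7 (0.919%) and, as before, 73 in library 8. Both KYSE-30 libraries and no KYSE-150 library shared 30 genes (0.149%), and both KYSE-150 libraries and no KYSE-30 library shared 7 (0.0348%), with 248 genes in either KYSE-150 library (1.23%). Named after their values were seen, the 30 genes include EDEM3 of the degradation of misfolded proteins in the endoplasmic reticulum, OPA1 of mitochondrial fusion, HSPD1 and HSPE1, the mitochondrial chaperonin pair, and MAPK7, the kinase ERK5. Of these 30 genes, 10 lay in segments of raised background described below, 5 of them beside EGFR on chromosome 7 (SEC61G, LANCL2, MRPS17, NIPSNAP2 and CHCHD2).

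The genes shared by the KYSE-150 libraries were mostly ones with copies elsewhere or with weak peaks. Over all peaks, 4 genes (0.0199%) had a promoter peak in both KYSE-150 libraries and in no KYSE-30 library. TBC1D3 and TBC1D3L, members of a multi-copy primate family, share a peak with fold enrichments of 4.56 and 5.75 in libraries 7 and 8, and the summit sequence occurs 2 and 5 times in the genome. AC026369.1 had 4.23 and 3.72 on sequence with 2 and 333 copies, so its place is uncertain. MUC5AC, a gel-forming mucin, was the 1 gene on single-copy sequence, with 4.67 and rank 114 in library 7 and 3.6 and rank 126 in library 8, and lies near a gap, 61.6 kb inside the gene. At equal rank KDM4C, RIC1 and TUBGCP5 were added, each of which also had a promoter peak in KYSE-30 library 6 over all peaks.

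Promoter peaks in at least 1 library of each line were found at 297 genes over all peaks (1.47%) and at 26 at equal rank (0.129%). Over all peaks 2 genes (0.00993%) had 1 in all 4 libraries, and at equal rank 0 (0%). CDC27, a subunit of the anaphase-promoting complex, had a peak at an internal start 32.3 kb from its 5′ end in all 4 libraries, with fold enrichments of 7.13, 9.24, 8.97 and 8.62 in libraries 4, 6, 7 and 8. A peak at another internal start, 52.7 kb from the 5′ end, had 7.43, 7.90 and 10.4 in libraries 4, 7 and 8, and the 5′ end itself had a weak peak of 4 in library 6. The shared site had rank 1227 in library 6, outside the 259 peaks of equal rank. REXO1L1 had 11, 7.09, 11.6 and 13.1, on sequence with 5 copies in 3 of the 4 libraries. Among the 26 genes, named after their values were seen, the shared promoter peak of AP4B1 and DCLRE1B (5.11, 9.62 and 3.86) and that of the thiamine transporter SLC19A2 (4.86, 11 and 4.38) were present in libraries 4, 6 and 7.

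The 10 leading KYSE-30 regions by mean rank lay mostly where the background was high. The first, in the first intron of EGFR (chr7:55200292-55201809), had a fold enrichment of 4.04 from 133 tags and rank 13 in library 4, and of 7.43 from 227 tags and rank 2 in library 6. Its sequence, printed above, holds 1 AP-1 core. Another EGFR intron region, NIPSNAP2, EGFR-AS1 and LANCL2 on the same arm were also among the 10, with a local background of 9.82 to 15.1 times the lowest of the library. The sixth, the distal region on chromosome 11 printed above (chr11:70079428-70080050), had 3.26 and 7.78 and holds the core. The promoters of ZNF286A-TBC1D26 (7.86 and 16.7, ranks 26 and 8) and EDEM3 (7.24 and 11.3) and a distal site near P3H2 on chromosome 3 (5.45 and 12) had a background under 4 times the lowest in both libraries. TOM1L2 (4.75 and 7.07) completed the list.

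The 10 leading KYSE-150 regions had fold enrichments of 3.06 to 7.35 in library 7 and 3.35 to 7.78 in library 8, and 3 of them lay within 1 Mb of a gap. The first was the distal site on chromosome 20 printed above (chr20:46523457-46524283), with 6.09 and rank 30 in library 7 and 6.72 and rank 22 in library 8. Regions at the end of chromosome 4, in an exon on chromosome 1, at CDC27P1 on chromosome 2 and in an intron on chromosome 19 followed, and the fourth region, on chromosome 9, had 14 copies. None of the 10 held the AP-1 core, and none lay at the promoter of a protein-coding gene. For most of them the nearest gene was a pseudogene, a noncoding RNA or a gene known only by a clone name or identifier.

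The leading regions of all 4 libraries had higher fold enrichments than those of either line in most cases. The intron region on chromosome 14 printed above had fold enrichments of 12.5, 14.1, 15.5 and 23 in libraries 4, 6, 7 and 8, and a downstream site near RAC1P4 on chromosome X 14, 20.6, 18 and 25.6. A region in the first intron of PARN, a poly(A) ribonuclease, had 9.57, 11.5, 12.3 and 15.2. All 3 were highest in library 8. At the promoter of MIR663AHG on chromosome 20, which lies near a gap, a region had 17.6, 15.2, 15.1 and 15.1, on a background of 6.08, 3.04, 10.9 and 14.2 times the lowest. Rank 1 or 2 in libraries 4, 7 and 8 and rank 13 in library 6 put it first among regions of all 4.

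The local background varied along the genome and did so differently in the lines. For each peak it was divided by the lowest of its library, which is called the relative background. Adjacent windows of 1 Mb in which a library had 3 or more peaks and their median relative background reached 4 gave 8 segments. In KYSE-30, 11 windows were raised in at least 1 library, and in KYSE-150 4 windows. Peaks with a relative background of 4 or more made up 11.2%, 13.1%, 10.04% and 9.27% of the peaks of libraries 4, 6, 7 and 8 at equal rank, and 6.69%, 1.34%, 4.94% and 9.27% over all peaks, where the long list of library 6 had the lowest share. At equal rank the shares were thus close, and the windows differed in place.

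The longest segment, 5 Mb around EGFR (chr7:52000001-57000000), had 61 peaks in each KYSE-30 library with a median relative background of 7.65 and 9.64, no peak in library 7 and 1 peak in library 8. At equal rank it held 15 and 19 peaks of libraries 4 and 6. Of its 17 protein-coding genes, 8 had a promoter peak in library 4 and 12 in library 6, and 0 in KYSE-150. A segment of 2 Mb around CTTN on chromosome 11 (chr11:70000001-72000000) had 8 and 20 peaks with 7.36 and 6.14 in libraries 4 and 6 and none in KYSE-150. The segments around HSPD1 on chromosome 2 (2.82 and 4.59) and MAPK7 on chromosome 17 (4.30 and 3.36) passed the threshold in 1 KYSE-30 library each and had no peak in KYSE-150. Extra copies of a segment would raise its background, and whether these segments were present in extra copies was not tested.

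In 2 segments KYSE-150 library 7 was raised and KYSE-30 was not. Around KDM4C on chromosome 9 (chr9:5000001-7000000), which encodes a histone H3 lysine demethylase, the median was 5.07 over 6 peaks of library 7 and 3.96, just under the threshold, over 3 peaks of library 8, while library 6 had 6 peaks at 1.04 and library 4 none. Promoter peaks lay there at KDM4C, RIC1, ERMP1 and KIAA2026 in library 7, at KDM4C and RIC1 in library 8, and at KDM4C, RIC1, GLDC and JAK2 in library 6. RIC1 had 59, 46 and 13 tags in libraries 7, 8 and 6 but fold enrichments of 3.04, 2.95 and 5.63, so the peak with the most tags had nearly the lowest fold. The KDM4C peaks lay 36.7 to 37 kb inside the gene. CD274 and PDCD1LG2, ligands of the immune checkpoint receptor PD-1 in the same segment, had no promoter peak in any library. Around ATF3 on chromosome 1 (chr1:212000001-213000000) the median was 6.70 over 5 peaks of library 7, against 1.87 and 2.54 in libraries 4 and 6, and library 8 had no peak there, so that this segment was not seen in both KYSE-150 libraries.

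In the last 2 segments both lines had peaks on a raised background. The segment around CDC27P1 on chromosome 2 (chr2:133000001-134000000) had medians of 4.81, 1.98, 6.10 and 9.37 in libraries 4, 6, 7 and 8, and that around KCNJ12 on chromosome 17 (chr17:21000001-22000000) of 7.79, 4.48, 3.23 and 6.52. ANKRD30BL in the former had promoter peaks in libraries 4, 7 and 8 (3.98, 4.14 and 4.44), on sequence with 2 copies in libraries 4 and 7.

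**Figure D5:**
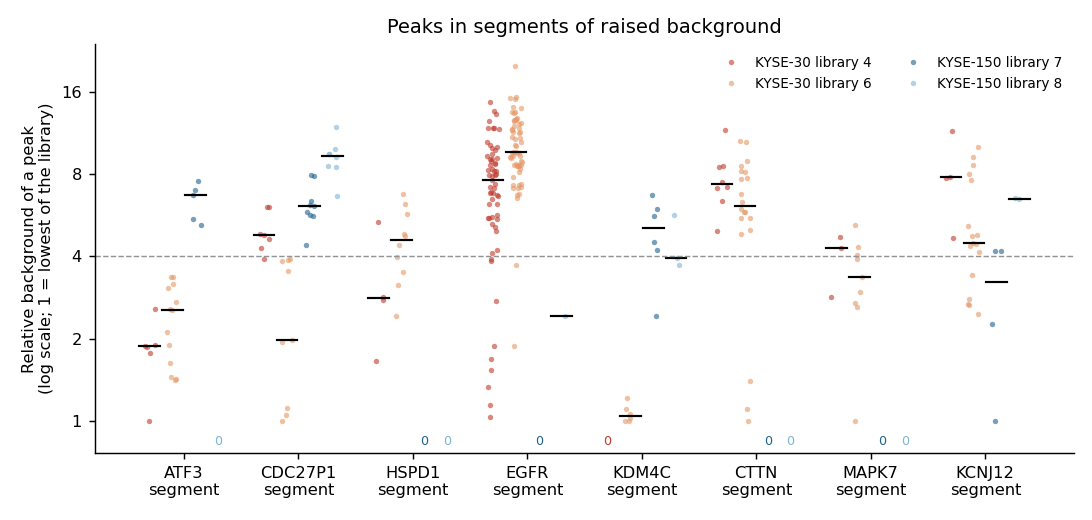
Relative background of each peak (y axis, log scale, 1 being the lowest of the library) in the 8 segments (x axis, named by a gene inside), by library, with medians as bars, the threshold of 4 as a dashed line and 0 where a library has no peak. The EGFR and CTTN segments are raised in both KYSE-30 libraries (medians of 7.65 and 9.64, and of 7.36 and 6.14), and the KDM4C segment in KYSE-150 library 7 at 5.07, with library 8 at 3.96.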

How the data were processed

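The authors' methods give 2 biological replicates per line, trimmed reads, duplicates marked with Picard 2.2.1, mapping to hg19 with Bowtie2 2.3.3.1, removal of blacklisted regions with bedtools 2.7.1, a shift of reads for Tn5 and a limit of 100 bp on fragments. MACS2 2.1.0.20160309 was run on single libraries at a q-value of 0.05. The deposited score is derived from the q-value, and the deposited fold enrichment is a ratio to the local background. The authors also gave −log10 of the p-value and −log10 of the q-value.

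Tags and local background were recovered from fold enrichment and p-value (tolerance 0.001) and tested on simulated data. The lists lack 172 to 199 of their peak numbers. Sites were annotated with GENCODE 44 on hg19, with promoters first and distal intergenic last. Of 355 listed genes 350 were found. Named regions were the 10 of smallest mean rank, as a share of the list, per pattern. Named genes were up to 4 per list with promoter peaks in both libraries of a line or in either KYSE-150 library, and others are said to be chosen after their values were seen. The regions, lists and tests were chosen with earlier results of these data known. Shares have Wilson 95% intervals, and a count of 0 allows 3 counts. Read depth is unknown. Python 3.11.15 was used with numba 0.67.0, numpy 2.4.6, scipy 1.17.1, pandas 2.3.3, matplotlib 3.10.9 and pysam 0.24.0. Alternatives were other rankings, q-values, overlaps, promoter definitions and left-out libraries or peaks. Those on multi-copy peaks were chosen after seeing the data. A few items are not reported here.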

Additional observations from a re-analysis of the deposited data

How the results depend on the processing

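Read totals are unknown, and the part of depth in the length of a list was not tested. The lowest local background, the only depth-like value in the lists, was 1.49 tags per 200 bp in library 6, which had the longest list. It was 2.36 in library 4 and 2.80 and 2.64 in libraries 7 and 8. The weakest peaks called held 13 tags in libraries 7 and 8, against 11 and 8 in libraries 4 and 6. No paired analysis was possible because the libraries of the lines share no replicate numbers. Of the values recomputed with another setting, other than by leaving out a library, 125 of those that answer a comparison stayed within their spread or within 1.5 times and 82 moved, as did 98 and 37 of those for single items. The cause of the moves was not tested, except where fewer peaks or another definition made them.

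The 631 KYSE-30 regions became 40 at equal rank, 19 at equal rank by fold enrichment, 15 with 100 peaks per library, 36 at equal rank among single-copy peaks, 410 with 50% reciprocal overlap and 11956 with either library of a line. The 26 KYSE-150 regions became 14 with 100 peaks, 11 without peaks near gaps, 15 with single-copy peaks and 483 with either library. The 21 regions of all 4 libraries became 9 at equal rank, 8 by fold enrichment, 6 with 100 peaks, 7 among single-copy peaks at equal rank, and 261 when 1 library of each line was enough. Leaving out 1 library at a time gave 638 to 11432 KYSE-30 regions, with 11432 without library 4 and 1164 without library 6, since 1 library then stands for the line. It gave 32 to 314 KYSE-150 regions, with 195 without library 7 and 314 without library 8, and 26 to 58 regions of all remaining libraries.

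The overlap of libraries 4 and 6 was 20.1% at equal rank, 10.8% by fold enrichment, 21% with 100 peaks, 60.5% at a q-value under 0.001, 21.3% among single-copy peaks at equal rank and 35.9% with 50% reciprocal overlap. For libraries 4 and 7 it was 29% with 100 peaks and 10.6% with 50% reciprocal overlap, and for libraries 4 and 8 11.6% by fold enrichment, 29% with 100 peaks and 10.9% among single-copy peaks. For libraries 6 and 7 it was 7.72%, 6.56%, 6% and 6.93% in the 4 equal lists by p-value, by fold enrichment, with 100 peaks and single-copy, and 22.7% with 50% reciprocal overlap. For libraries 6 and 8 it was 3.47%, 3.47%, 6% and 3.47% in these equal lists, and for libraries 7 and 8 18.5% by fold enrichment and 40% with 100 peaks.

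The promoter share of library 4 was 68% at equal rank, 69.5% by fold enrichment, 59% with 100 peaks, 54.5% with promoters of 1 kb and 50.5% with protein-coding start sites. For library 6 these were 71%, 67.2%, 69%, 47.9% and 45.9%, and 72.3% among single-copy peaks. For library 7 it was 59% with 100 peaks, 69.8% among single-copy peaks, 57.2% with 1 kb and 50.1% with protein-coding start sites, and for library 8 41%, 33.6% and 26.6% with 100 peaks, 1 kb and protein-coding start sites. The share with the AP-1 core outside promoters was 22.9% at equal rank, 26.1% among single-copy peaks and 23.5% over the whole peak in library 4. In library 6 it was 61.3% at equal rank, 61.2% by fold enrichment, 51.6% with 100 peaks, 44.8% at a q-value under 0.001, 60.7% among single-copy peaks and 47.3% over the whole peak. In library 7 it was 12.2% with 100 peaks and 11.5% among single-copy peaks.

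Genes with promoter peaks in both KYSE-30 libraries alone, 570, became 30 at equal rank, 18 by fold enrichment, 7 with 100 peaks, 27 among single-copy peaks and 5631 with either library, and 576 to 5491 with a library left out. Those of KYSE-150, 4, became 7 at equal rank, 1 with 100 peaks, 2 without peaks near gaps, 1 with single-copy peaks and 126 with either library, and 5 to 89 with a library left out. Raised windows numbered 26 in KYSE-30 and 9 in KYSE-150 at a relative background of 3, and 7 and 2 at 6. In KYSE-150 they numbered 8 with at least 2 peaks and 2 with at least 5.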
